A study of Mus musculus with 6 samples.

Results

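The mRNAs of the cytosolic ribosomal proteins were compared between mouse embryonic fibroblasts (MEF) that had passed through narrow pores and parental cells. Members were the protein-coding genes whose symbol is Rpl or Rps followed by a number, with at most a closing letter a, x, l, y or p and a further number, together with Rpsa, Rplp0, Rplp1 and Rplp2, with pseudogenes left out. This rule gave 83 of the 55335 genes in the table. Expression values were not used to choose them. Of the 83, 81 passed the filter on low counts, and the paralogs Rpl10l and Rpl39l had 0 counts in every library, which allows a level of up to between 0.101 and 0.128 normalized CPM (counts scaled to a fixed library size), a floor of 3 counts that covers counting error only.

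MEF are adherent connective tissue cells grown from mouse embryos. Ctrl were the parental MEF. Confine were those cells that had crossed 3 μm transwell pores within 15 h. Both groups were labelled WT, with no transgene, drug or age given, and nothing in the labels says that the replicates came from separate cultures, so p-values measure only the spread between these libraries, which may be technical. Polyadenylated RNA was sequenced, so the ribosomal RNA itself was not measured. Confine replicates 1 and 2 had equal counts for every one of the 55335 genes, so they entered as a single library, named Confine 1 here. That left 3 Ctrl libraries of 22287210 to 27853805 counts and 2 Confine libraries of 27290138 and 32537550 counts.

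The cytosolic ribosome translates mRNA into protein and consists of a small subunit, which reads the mRNA, and a large subunit, which joins amino acids. Ribosomal proteins bind ribosomal RNA in the nucleolus with the help of assembly factors, and cells make the proteins in near-equal amounts. Their mRNAs are among the most abundant in growing cells, and many start with a 5′ terminal oligopyrimidine (TOP) tract, a C followed by further C or T bases, through which mTORC1 signalling controls their translation. Several ribosomal proteins have a paralog encoded by a second gene, and some paralogs are used mainly in testis or muscle.

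Transcript starts show how the paralogs and their canonical partners differ outside the coding sequence. The first 25 bases of an annotated transcript (GENCODE M21, genome build GRCm38) are given 5′ to 3′, with a TOP tract in capitals where the transcript starts with C and at least 4 further C or T bases. The first 6 sequences belong to the pairs whose counts are compared below, and the last 2 are members with a tract of different length.
Rps27: CCTTTCCggcggtgacgacctccct
Rps27l: gcctctatcccggaagttgctgagg
Rpl22: gcccccctccctttctgcctcctct
Rpl22l1: gttgcgtatttcgcacgctctgcgt
Rpl7: cccagagctgacgaggtgtccccac
Rpl7l1: cgcagtagctgaagcaccggaaaga
Rpl32: CTTCCTTCTTCCTCggcgctgccta
Rpl37: CTCTTCCggtctctttggcctcgcc
In this build these stretches lie at chr3:90213624-90213648 (minus strand, Rps27), chr9:66946086-66946110 (plus, Rps27l), chr4:152325853-152325877 (plus, Rpl22), chr3:28805436-28805460 (plus, Rpl22l1), chr1:16104638-16104662 (minus, Rpl7), chr17:46782632-46782656 (minus, Rpl7l1), chr6:115808723-115808747 (minus, Rpl32) and chr15:5116645-5116669 (plus, Rpl37), each at the start of exon 1. Rps27 had the tract on 2 of its 3 annotated transcripts, including the transcript shown, but not on its representative transcript. For the other genes above, the representative transcript is shown. With any annotated transcript counted, 20 of the 81 members tested (24.7%) started with such a tract, against 550 of the 12192 protein-coding genes tested (4.51%). With 1 representative transcript a gene, the shares were 13.6% and 2.32%. A tract is read here only from the annotated start, and a start placed a few bases away hides or makes one.

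Members spanned a wide range of levels. Per length of transcript, the highest mean level over the 5 libraries was that of Rplp1, a protein of the stalk that recruits translation factors, at 5383 normalized CPM per kb. Rps25 followed at 5269, Rps18 at 4537, Rpl41 at 3762 and Rps14 at 3410 CPM per kb. The median over the 81 members was 801 CPM per kb.

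The low end held 2 paralogs and 3 ordinary subunit genes. The lowest was Rpl3l, the muscle paralog of Rpl3, at 0.338 CPM per kb, from 8, 11 and 9 counts in Ctrl and 11 and 22 in Confine. Rpl24 had 3.97, Rps10 7.08, Rpl29 25.6 and Rpl22l1 47.5 CPM per kb. Rpl24, Rps10 and Rpl29, the ordinary subunit genes, each had near-identical copies elsewhere in the genome, defined by at least 95% identity over at least 80% of the coding sequence. Of the counts on gene and copies together, the copies held 97.2% for Rpl29, 96.9% for Rps10 and 80.5% for Rpl24, against 31.0% for Rpl3 and under 5% for 47 of the 81 members. Rps10 itself had 138, 119 and 55 counts in Ctrl and 97 and 69 in Confine, while its pseudogene Rps10-ps2 had 2326, 2098 and 1747 counts in Ctrl and 3033 and 2688 in Confine. Rps10 and Rpl24 were also covered over 91.6% and 71.5% of their transcript by another annotated gene on the same strand, RPS10-NUDT3 and Gm28037, both at 0 counts in every library. How multi-mapping or overlapping reads were counted is not given in the sources used here, so the levels and fold changes of these 3 genes are uncertain.

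**Figure D1:**
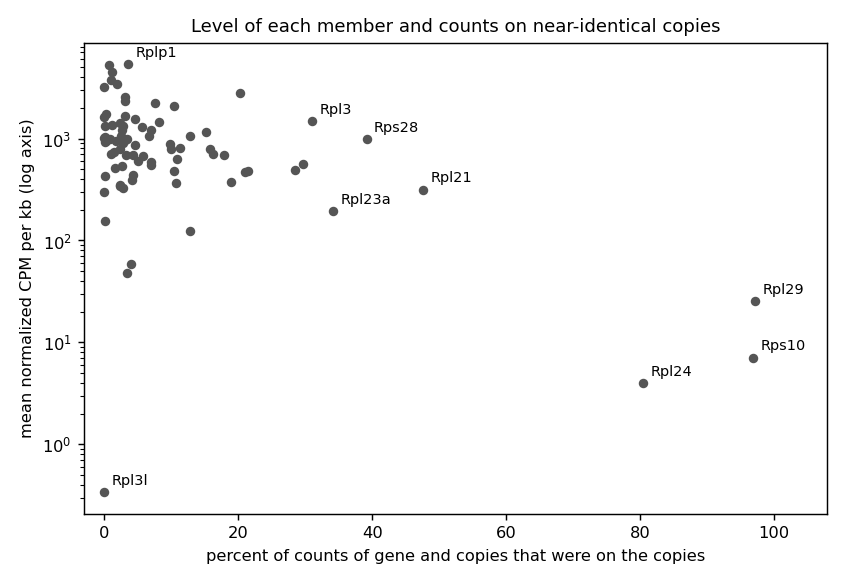
Mean level of each of the 81 tested members over the 5 libraries (normalized CPM per kb of transcript, log axis) against the percent of counts on gene and near-identical copies that lay on the copies. Rpl29, Rps10 and Rpl24 stand apart at the right with 97.2%, 96.9% and 80.5% and lie near the bottom, and Rpl3l is lowest with no copies.

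The share of each library taken by all members together did not separate the groups. Members held 6.41%, 7.41% and 6.85% of all counts in Ctrl and 6.49% and 8.48% in Confine. Confine 1 lay within the Ctrl range and Confine 3 above it. The means were 6.89% ± 0.504 (SD, n = 3) and 7.48% ± 1.41 (SD, n = 2), and the difference of 0.59 percentage points had p = 0.6 by a two-sided exact permutation test, whose smallest possible p with 3 against 2 libraries is 0.1. Without Confine 3 the difference was -0.405.

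After TMM normalization, which sets each library's scale from the bulk of its genes, the members' sum of CPM was 61660, 68520 and 64960 in Ctrl and 71320 and 91850 in Confine, so both Confine libraries lay above the Ctrl range (two-sided exact permutation p = 0.1). TMM factors were 1.04 to 1.08 in Ctrl and 0.91 to 0.924 in Confine. Relative to each member's Ctrl mean, the median log2 ratio over the members was -0.08, 0.11 and -0.03 in Ctrl, 0.11 in Confine 1 and 0.48 in Confine 3. The middle of the members in Confine 1 was thus level with Ctrl 2, and Confine 3 was the library that stood apart. In Confine 1, 38 of the 81 members exceeded their highest Ctrl value, against 70 in Confine 3. In these bulk libraries fewer cells of a type and less RNA per cell cannot be told apart.

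The balance of the subunits did not separate the groups. Small subunit genes held 45.2%, 47.4% and 45.4% of the members' counts in Ctrl and 47.6% and 47.1% in Confine, with Confine 1 alone above the Ctrl range (two-sided exact permutation p = 0.3).

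**Figure D2:**
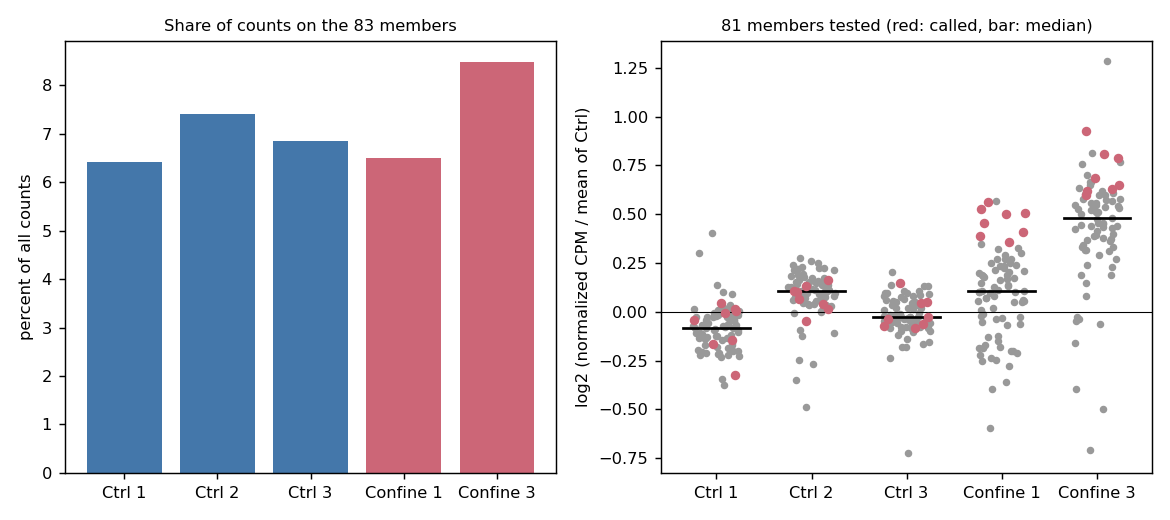
Left, percent of all counts on the 83 members in each library (blue, Ctrl; red, Confine). Right, log2 ratio of normalized CPM to the Ctrl mean for the 81 members tested in each library, with called members in red and the median as a bar. Confine 1 lies at 6.49% within the Ctrl range and Confine 3 at 8.48% above it. The called members, picked on these same values, are high in both Confine libraries.

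Gene by gene, 8 of the 81 members tested (9.88%) rose in Confine and 0 fell at an adjusted p under 0.05 (edgeR, quasi-likelihood, with the Benjamini-Hochberg method over all 15881 genes tested). Over all genes 12.8% were called higher and 10.2% lower, so the share of members called higher was no larger than the background. At an unadjusted p under 0.05, 22 members were higher and 2 lower, DESeq2 called 9 higher and 2 lower (Rps27l and Rpl7l1), and limma-voom called 8 higher and 0 lower. The members' median log2 fold change was 0.32 (quartiles 0.18 and 0.42), against -0.0021 over all genes tested, and 72 members lay above 0 and 9 below. The members' values were thus shifted by little and in nearly the same direction, with a median standard error (SE) of 0.187. With library size alone as the scale, the median of all genes moved by -0.21, the members' median was 0.11 with 56 members above 0 and 25 below, and 0 members were called higher and 2 lower, against 9.09% and 17.7% of all genes.

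Without overlap between the groups, 37 members (45.7%) were higher in both Confine libraries than in every Ctrl library and 3 (3.7%) were lower, against 25.9% and 23.6% of all genes tested. With library size alone as the scale, these numbers were 10 (12.3%) and 6 (7.41%), against 16.9% and 36.3%. None of the 81 members passed the cutoff of the study on top of the adjusted p, a log2 fold change above 1.5 in size. Both criteria together were met upward by 4.89% and downward by 3.11% of all genes tested.

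**Figure D3:**
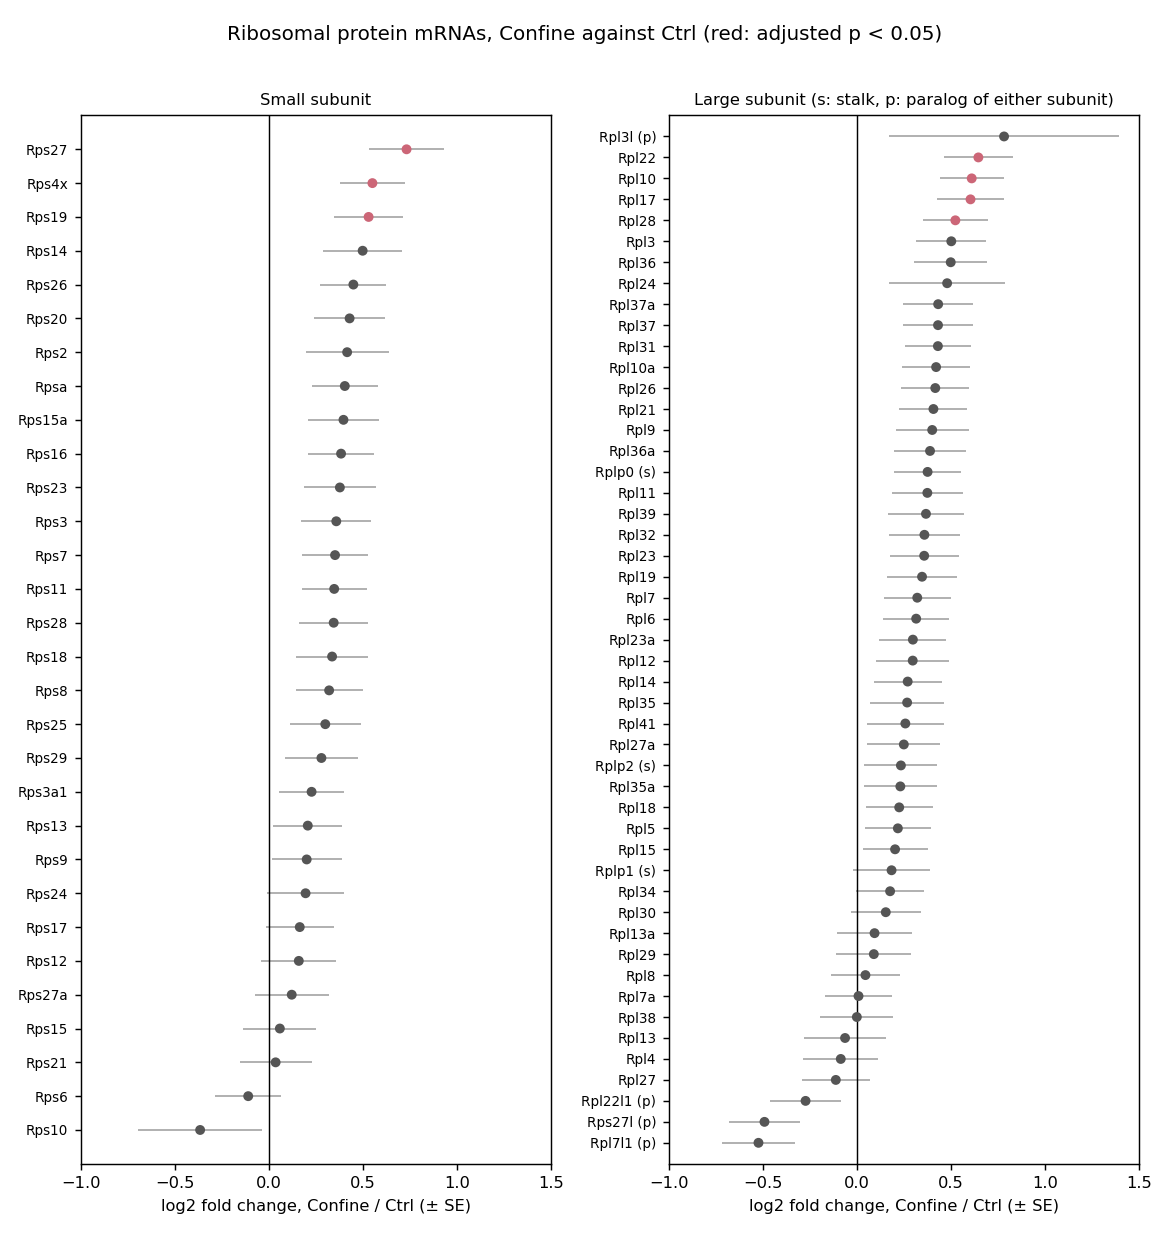
Log2 fold change of Confine against Ctrl with its SE for all but 2 of the 81 members tested, from edgeR's fit over 3 Ctrl and 2 Confine libraries. Points in red, 3 small and 4 large subunit genes, have an adjusted p under 0.05, and paralogs take 3 of the 4 lowest places of all members, and Rpl3l has the widest error.

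Among the small subunit genes, 4 of 31 (12.9%) rose, against 12.8% of all genes tested. Of the 31, 29 lay above 0, with a median log2 fold change of 0.34. Rps27, a zinc finger protein of the small subunit (chr3:90212522-90213651), had 193.0, 264.4 and 267.3 normalized CPM in Ctrl and 343.7 and 458.5 in Confine. Both Confine libraries were above every Ctrl library, and the gene had the largest change among the called members, 0.73 ± 0.20 (log2, SE, edgeR adjusted p = 0.0109). Its TOP start shown above is not that of its representative transcript.

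Rps4x, the X-linked gene of another small subunit protein (chrX:102184941-102189394), had 2002, 1997 and 1832 CPM in Ctrl and 2753 and 2939 in Confine. Its values in the groups were close together and far apart between them, with a log2 fold change of 0.55 ± 0.17 (SE, edgeR adjusted p = 0.0261). Rps19, mutated in inherited Diamond-Blackfan anaemia (chr7:24884371-24889806), had 644.4, 778.0 and 746.2 CPM in Ctrl and 925.1 and 1162 in Confine. Its log2 fold change was 0.53 ± 0.18 (SE, edgeR adjusted p = 0.0426), and it was the called member whose groups overlapped when library size alone set the scale.

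Rpsa, also known as the laminin receptor, had 3543, 3855 and 3593 CPM in Ctrl and 4353 and 5339 in Confine. The groups did not overlap, but its log2 fold change of 0.40 ± 0.18 (SE) had an edgeR adjusted p of 0.113. The small subunit genes that were not called ranged from -0.37 for Rps10 to 0.50 for Rps14 on the log2 scale. Rps6, the substrate of the S6 kinases, had 493.8, 542.0 and 474.4 CPM in Ctrl and 438.2 and 494.8 in Confine, with overlapping groups. Rps6 was one of only 2 small subunit genes below 0, the other being Rps10.

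Among the large subunit genes other than the stalk and paralogs, 4 of 43 (9.30%) rose, against 12.8% of all genes tested. Of the 43, 39 lay above 0, with a median of 0.32. Rpl22, an RNA-binding protein of the large subunit (chr4:152325742-152334071), had 149.6, 185.1 and 161.1 CPM in Ctrl and 226.9 and 289.6 in Confine. Both Confine libraries were above the Ctrl range, with a log2 fold change of 0.64 ± 0.18 (SE, edgeR adjusted p = 0.0159). Rpl10, which joins the large subunit last and sits near its catalytic centre (chrX:74270812-74273135), had 1112, 1158 and 1053 CPM in Ctrl and 1639 and 1739 in Confine. Its log2 fold change was 0.61 ± 0.17 (SE, edgeR adjusted p = 0.0144), and the 2 Confine libraries lay close together.

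Rpl17, a protein at the exit of the peptide tunnel, had 362.9, 353.6 and 377.8 CPM in Ctrl and 478.1 and 629.4 in Confine. The Ctrl libraries lay close together and below both Confine libraries, with a log2 fold change of 0.60 ± 0.18 (SE, edgeR adjusted p = 0.0209). Rpl28, another large subunit protein (chr7:4792874-4795066), had 319.5, 319.8 and 311.0 CPM in Ctrl and 420.0 and 489.5 in Confine. Its log2 fold change was 0.52 ± 0.17 (SE, edgeR adjusted p = 0.0363). Of the large subunit genes not called, Rpl3, an early assembling protein next to the catalytic centre, came closest by size, with 1688, 1570 and 1877 CPM in Ctrl and 2062 and 2780 in Confine. Its log2 fold change was 0.50 ± 0.19 (SE, edgeR adjusted p = 0.0613).

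The 3 stalk genes were not called. Rplp0, the base of the stalk, had 2764, 2526 and 2894 CPM in Ctrl and 3139 and 3931 in Confine, without overlap (log2 fold change 0.37 ± 0.18, SE, edgeR adjusted p = 0.149). Rplp1 had 2189, 2812 and 2644 CPM in Ctrl and 2240 and 3545 in Confine, with Confine 1 inside the Ctrl range. Rplp2 had 248.3, 352.0 and 270.5 CPM in Ctrl and 307.0 and 375.0 in Confine, which also overlapped.

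The 8 calls rested on few libraries. Their log2 ratios to the Ctrl mean ranged from 0.36 to 0.57 in Confine 1 and from 0.60 to 0.93 in Confine 3. Each was thus high in both, which a call made on these same values favours. Yet 0 members were called higher without Ctrl 1, 1 (Rps27) without Ctrl 3 and 0 without Confine 3, and 15 were called higher without Confine 1, among them all of the 8 but Rpl28. The members' median log2 fold change was 0.11 without Confine 3 and 0.48 without Confine 1.

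Across the members, log2 fold change had little relation to what else was measured of them. Over the 81 members, Spearman's rho was 0.11 with transcript length, 0.18 with level per length and 0.10 with the percent of counts on copies, and all points come from the same 5 libraries. Members with an annotated TOP start had a median log2 fold change of 0.32 with 1 of 20 called, and the members without one had 0.32 with 7 of 61 called. Because an annotated start can hide or make a tract, this split cannot tell members that carry a tract from those that do not. The 47 members with under 5% of counts on copies had a median of 0.32, with 5 called higher.

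For called genes whose copies had at least 10 counts in every library, copies counted apart from the gene carried similar values. Their log2 ratio of Confine to Ctrl ran from 0.51 for copies of Rps4x to 0.75 for those of Rps27. The copy of Rpl22 had too few counts for a ratio. Among named members not called, the ratio ran from -0.16 for copies of Rpl22l1 to 0.58 for those of Rpl3, so higher values on copies were not particular to called genes. Rps27rt, a retrotransposed gene whose coding sequence is identical to that of Rps27, had 541, 710 and 614 counts in Ctrl and 1025 and 1189 in Confine, with a log2 fold change of 0.78 ± 0.21 (SE, edgeR adjusted p = 0.0101). Copies of Rpl17 held 4472, 3897 and 3721 counts in Ctrl and 6039 and 6678 in Confine. Because reads can move between a gene and its copies, these are not independent of the gene's own values. With the counts of 570 copies added to their members, chosen after seeing the data, the 8 calls were kept and 2 were added, Rpl3 among them, and the log2 fold change of Rps10 changed sign from -0.37 to 0.42 (edgeR adjusted p = 0.0965).

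Relative to their canonical partners, 3 paralogs had fewer counts in Confine. A ratio of counts within a library does not depend on normalization, and per 100 counts of the canonical gene it was lower in both Confine libraries than in every Ctrl library for 3 of the 4 pairs with at least 10 counts throughout. With 3 against 2 libraries no ratio could reach p < 0.05, and each of the 3 had the smallest possible two-sided exact permutation p of 0.1 (0.133 after Benjamini-Hochberg adjustment over 4 pairs).

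Rps27l, a small subunit paralog known as a p53 target (chr9:66946086-66949516), had 75.7, 74.1 and 60.3 counts per 100 of Rps27 in Ctrl and 32.3 and 27.8 in Confine. The lowest Ctrl library thus lay far above the highest Confine library, and the mean log2 ratio differed by -1.22, a factor of 0.43 (exact permutation p = 0.1). By itself Rps27l had 146.1, 195.8 and 161.2 normalized CPM in Ctrl and 111.0 and 127.4 in Confine, with a log2 fold change of -0.49 ± 0.19 (SE, edgeR adjusted p = 0.0699).

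Rpl22l1, the paralog of Rpl22 (chr3:28805436-28807424), had 18.6, 16.6 and 16.1 counts per 100 of Rpl22 in Ctrl and 9.42 and 8.71 in Confine. Libraries of a group lay close together and the groups were well apart, with a difference of -0.91 in log2 ratio, a factor of 0.53 (exact permutation p = 0.1). Its own level was 27.9, 30.7 and 25.9 CPM in Ctrl and 21.4 and 25.2 in Confine, with a log2 fold change of -0.27 ± 0.19 (SE, edgeR adjusted p = 0.329).

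Rpl7l1, a paralog of Rpl7 that takes part in making the large subunit (chr17:46773907-46782672), had 25.6, 18.5 and 24.6 counts per 100 of Rpl7 in Ctrl and 16.1 and 10 in Confine. The groups did not overlap but Confine 1 was near Ctrl 2, and the log2 ratio differed by -0.83, a factor of 0.56 (exact permutation p = 0.1). Rpl7l1 had the lowest log2 fold change of all members, -0.52 ± 0.19 (SE, edgeR adjusted p = 0.0582), from 253.4, 194.6 and 244.1 CPM in Ctrl and 179.6 and 141.1 in Confine. Rpl7 itself had 991.6, 1051 and 992.2 CPM in Ctrl and 1114 and 1410 in Confine (log2 fold change 0.32 ± 0.18, SE, edgeR adjusted p = 0.221). With library size alone, or with the members' own mean as the scale, Rpl7l1 and Rps27l were both called lower.

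The fourth pair did not separate. Rpl36al, a retrotransposed paralog outside the rule, had 0.566, 0.356 and 0.425 counts per 100 of Rpl36a in Ctrl and 0.452 and 0.236 in Confine, with p = 0.5 by the two-sided exact permutation test. Rpl3l was not compared because it fell under 10 counts, and its log2 fold change of 0.78 ± 0.61 (SE) had an edgeR adjusted p of 0.40. Rpl10l and Rpl39l, paralogs used mainly in testis, had 0 counts, while Rpl39 had 160.5, 186.2 and 190.6 CPM in Ctrl and 180.0 and 281.5 in Confine.

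**Figure D4:**
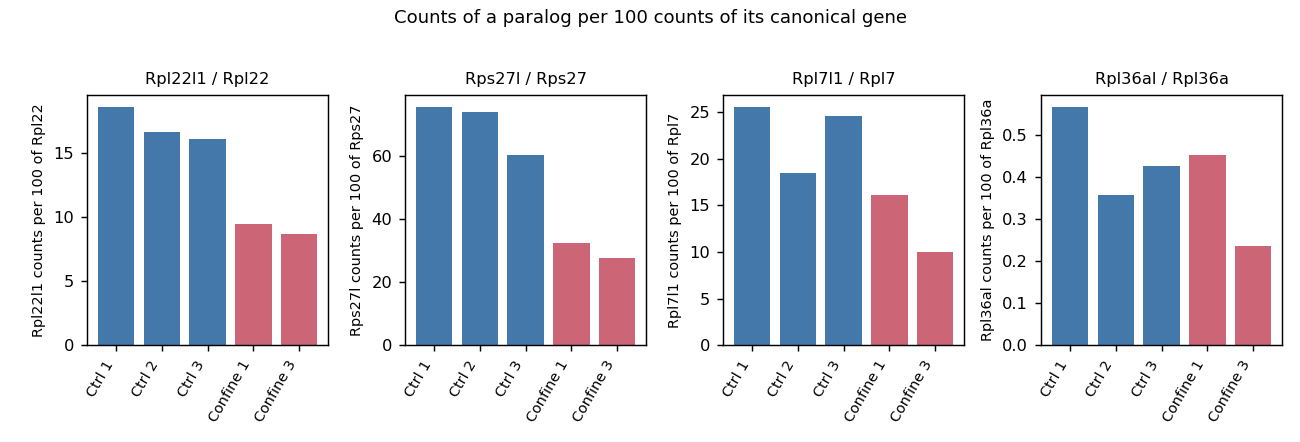
Counts of a paralog per 100 counts of its canonical gene in each library (blue, Ctrl; red, Confine; each axis starts at 0). Rpl22l1, Rps27l and Rpl7l1 are lower relative to their partner in both Confine libraries than in every Ctrl library, and Rpl36al is not.

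Ribosomal proteins outside the naming rule were few. Fau, whose product is cut into a ubiquitin-like protein and the small subunit protein eS30, rose from 408.3, 488.8 and 436.9 CPM in Ctrl to 614.9 and 865.2 in Confine (log2 fold change 0.73 ± 0.19, SE, edgeR adjusted p = 0.00796). Rack1, a scaffold protein on the small subunit, had a log2 fold change of 0.19 ± 0.17 (SE) and was not called.

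Genes that assemble ribosomes had a median of the opposite sign. Of 113 assembly factors tested, 28 (24.8%) fell and 2 (1.77%) rose (Nvl and Riok3), against 10.2% and 12.8% of all genes tested. Their median log2 fold change was -0.38, and 0 of 81 members were called lower. Rrp12, which matures the small subunit precursor, had a log2 fold change of -1.21 ± 0.28 (SE, edgeR adjusted p = 0.00423). Dkc1, the pseudouridine synthase of H/ACA particles, fell from 339.6, 259.4 and 212 CPM in Ctrl to 145.1 and 94.2 in Confine (edgeR adjusted p = 9.5e-04), and Nop56, of the box C/D particles that methylate ribosomal RNA, from 159, 145.4 and 131.5 to 73.1 and 57.3 (edgeR adjusted p = 2.1e-04). The count of assembly factors called lower was 4 without Confine 3, 13 without Ctrl 1 and 58 with library size alone. With library size alone, 17.7% of all genes tested were called lower. As a ratio within each library, chosen after seeing the data, there were 5.62, 6.78 and 7.25 member counts per count on an assembly factor in Ctrl and 7.97 and 11.9 in Confine. Both Confine libraries were above the Ctrl range, Confine 1 by little.

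The other translation lists held mixed values, beside 12.8% of all genes tested called higher and 10.2% called lower. Of the 14 RNA polymerase I genes tested, edgeR, DESeq2 and limma-voom each called 0, although 4 were lower at an unadjusted p under 0.05, and the median log2 fold change was -0.23. Among 77 mitochondrial ribosomal protein genes, 1 rose and 6 (7.79%) fell, with a median of -0.13 and the largest change in Mrps6 at -1.09 ± 0.20 (SE, edgeR adjusted p = 4.3e-04). Of 38 initiation factor genes 3 rose and 1 fell. Eif1b, a close relative of the start codon selection factor eIF1, had a log2 fold change of 1.46 ± 0.18 (SE, edgeR adjusted p = 8.3e-06), Eif2b2, a subunit of the exchange factor of eIF2, one of 1.18 ± 0.18 (SE, edgeR adjusted p = 1.1e-04), and Eif6, which keeps free large subunits from joining small ones, one of 0.49 ± 0.17 (SE, edgeR adjusted p = 0.0444). Eif4g2 fell (-0.62 ± 0.20, SE, edgeR adjusted p = 0.0318). Of 10 elongation and termination genes, the termination factor Etf1 and the ribosome recycling factor Abce1 fell and 0 rose by edgeR and limma-voom, with 1 higher at an unadjusted p under 0.05 and by DESeq2.

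Many non-coding hosts of small nucleolar RNAs are known to carry TOP starts. Of 12 tested, 4 (33.3%) were called higher and 0 lower by edgeR, DESeq2 and limma-voom, with 1 lower at an unadjusted p under 0.05. Over all genes tested, edgeR called 12.8% higher and 10.2% lower. The median log2 fold change of the 12 hosts was 0.0011, so the list as a whole was not shifted upward. The 4 called higher were Zfas1, Snhg18, Gas5 and Snhg12. Zfas1 rose from 54.3, 75.2 and 66.3 CPM in Ctrl to 130.7 and 139.1 in Confine (1.05 ± 0.19, SE, edgeR adjusted p = 3.6e-04), and Gas5 from 302.1, 350.1 and 328.1 to 522.1 and 490.2 (0.63 ± 0.17, SE, edgeR adjusted p = 0.0122). Snhg18 had a log2 fold change of 0.70 ± 0.21 (SE, edgeR adjusted p = 0.0229) and Snhg12 one of 0.57 ± 0.20 (SE, edgeR adjusted p = 0.0470). Of 10 genes of mTORC1 and TOP mRNA control, Eif4ebp1, which encodes an inhibitor of cap-dependent initiation, rose (0.98 ± 0.19, SE, edgeR adjusted p = 7.1e-04), and Rps6kb1, which encodes the S6 kinase, fell (-0.55 ± 0.19, SE, edgeR adjusted p = 0.0402). Of 9 genes of the MYC network, whose factors bind ribosomal protein genes, Mxi1, Mxd1 and Mnt rose and Mxd3 fell, and Myc had a log2 fold change of 0.29 ± 0.25 (SE, edgeR adjusted p = 0.455).

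**Figure D5:**
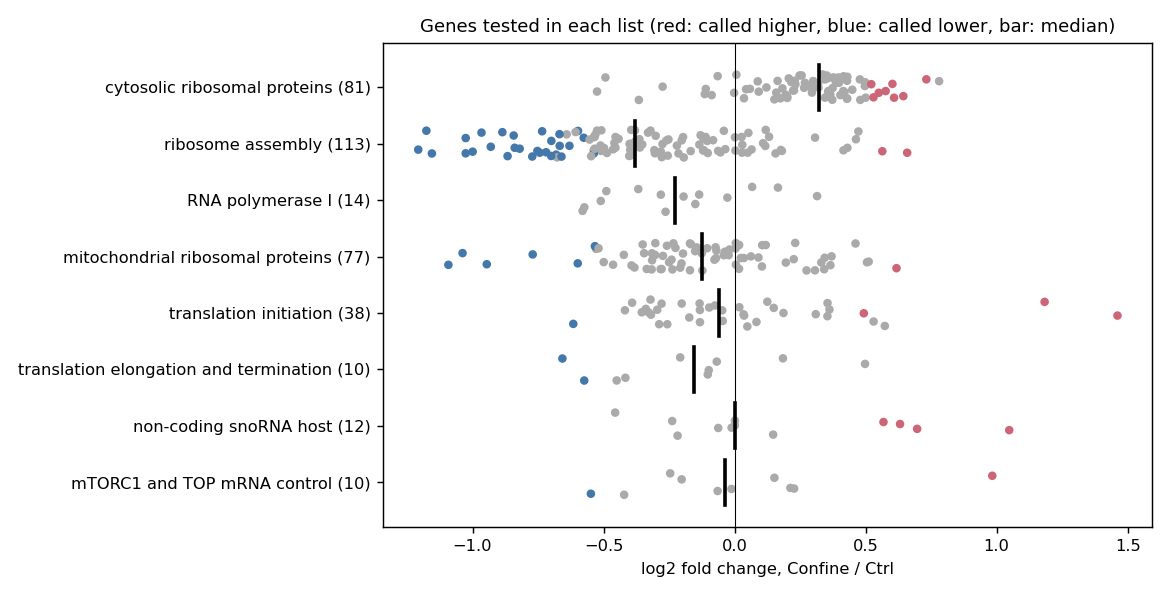
Log2 fold change of Confine against Ctrl for the genes tested in each list, with the number tested, the genes called higher in red or lower in blue, and the median as a bar. The median is 0.32 for the cytosolic ribosomal proteins and -0.38 for the ribosome assembly factors.

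Fibroblast markers were abundant in both groups, and 5 of the 7 tested (71.4%) rose in Confine (Col1a1, Col3a1, Vim, Fn1 and Pdgfra), against 12.8% of all genes tested. Col1a2 (log2 fold change 0.24) and Pdgfrb (-0.36) were not called. Pdgfrb went the other way, with 97.87, 101 and 91.77 normalized CPM in Ctrl and 87.5 and 63.45 in Confine. The summed level of the 10 fibroblast markers was 9209 to 10320 CPM in Ctrl and 14300 and 15220 in Confine, while Thy1, Lum and Dcn were at or near 0. Like the leukocyte and epithelial sums below, this sum was scaled by library size alone, without TMM. Leukocyte markers summed to 8.03 to 9.08 CPM in Ctrl and 16.9 and 23.9 in Confine, with Cd68 and Csf1r higher and Lyz2 lower of the 3 of 9 that were tested, and with Adgre1 and Cd3e at 0 and Ptprc at 0 in both Confine libraries. Epithelial markers summed to 0.395 to 0.736 CPM in Ctrl and 3.66 and 8.1 in Confine, with Krt19 higher as the 1 of 6 tested and with Epcam and Krt18 at 0, and none of 5 endothelial markers passed the filter. The part of these markers in the ribosomal protein values was not tested.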

How the data were processed

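RNA-seq of polyadenylated RNA from 3 Ctrl and 3 Confine MEF samples was analysed from the deposited table. The authors deposited raw counts of reads per gene, without normalization. Per the labels the reads were trimmed with Trim Galore 0.6.10, aligned to mm10 with HISAT2 2.1.0, handled with SAMtools 1.5 and counted with featureCounts. Strand and multi-mapping options of the counting are not given in the sources used here, which matters for genes with many copies. Of the 55335 identifiers, 54587 match GENCODE M21 with their version and 55154 without it.

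Confine replicates 1 and 2 were identical and counted once, so 3 against 2 libraries were fitted where 3 against 3 had been planned. Genes were filtered with filterByExpr, scaled with TMM factors and compared in edgeR 4.0.16 by its quasi-likelihood F-test (R 4.3.3, with 3 residual degrees of freedom and prior degrees of freedom of median 14.8), with Benjamini-Hochberg adjustment over 15881 genes and a call at an adjusted p under 0.05. Shares and ratios per library were compared by two-sided exact permutation tests. Copies were found with blastn 2.17.0. The script was tested on simulated data. Alternatives were DESeq2 1.42.0, limma-voom (limma 3.58.1), other scales and filters, a block for the replicate number and each library left out in turn.

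Members and lists were chosen with earlier results of these data known. Members named were the 5 highest and 5 lowest by level per length, the called members, the paralogs with their canonical genes, the stalk genes and Rpsa, and, of other lists, up to 4 called genes with the largest change. Rps6, Rack1, Nvl, Riok3, Myc, some markers, the copies of members and the last 2 transcript starts were chosen after their values were seen. A few genes, 1 called member among them, are not reported here. Depth limits Rpl3l, Rpl24 and Rps10 most.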

Additional observations from a re-analysis of the deposited data

How the results depend on the processing

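The number of members called higher, 8, was 0 with library size alone, 0 with the members' geometric mean as the scale and 0 with the fold change cutoff of the study, and 0 to 15 with 1 library left out (0 without Ctrl 1, 12 without Ctrl 2, 1 without Ctrl 3, 15 without Confine 1 and 0 without Confine 3). The same 8 genes were called with RLE factors, DESeq2, limma-voom, both other filters, the identical columns as 2 libraries, and copies added. The number called lower, 0, was 2 with library size alone, the members' scale, DESeq2 and the identical columns as 2 libraries, 1 without a filter, and 0 to 1 with 1 library left out. The members' median of 0.32 was 0.0549 with the members' scale and 0.11 to 0.48 with 1 library left out. The members' scale is set from the members themselves and so removes their common shift by construction. Their calls, signs and median on that scale are therefore no test of the shift. Assembly factors called lower, 28, were 58 with library size alone, 44 with the members' scale and 4 to 42 with 1 library left out, and those called higher, 2, were 0, 0 and 0 to 4, and 6 with the identical columns as 2 libraries. The difference in percent of counts was -0.405 to 1.58 with 1 library left out, and the log2 difference of Rpl36al against Rpl36a was -0.899 to 0.0358, while the other 3 ratios kept their sign. Named members below 0 in place of above it were Rplp1 (-0.0261) and Rpl29 (-0.12) with library size alone, Rplp1 (-0.104), Rpl41 (-0.0341), Rpl29 (-0.157) and Rplp2 (-0.0292) with the members' scale. With 1 library left out, Rplp1 lay between -0.188 and 0.479 and Rpl41 between -0.127 and 0.56, both lowest without Confine 3, and Rpl29 between -0.032 (without Confine 1) and 0.199. Rps10 was at 0.416 with copies added. The cause of these moves was not tested. With the replicate number as a block, the repeated library as number 2 gave 0 members higher, 12 assembly factors lower and 0 higher, and as number 1 gave 21 members higher and 1 lower, 43 assembly factors lower and 4 higher. The difference between the Confine libraries had a correlation of -0.058 with that between the same-numbered Ctrl libraries, with the repeated library as number 2. As number 1 it was 0.057. A single such contrast cannot tell whether same-numbered libraries shared a culture or batch.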
